A study of Mus musculus with 12 samples.

Results

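The miR-17-92 cluster and its paralogs, miR-106b-25 and miR-106a-363, are represented here by 10 guide strands, the arms of each hairpin that are usually loaded into Argonaute. They were taken by name from the 1908 miRNAs of a count table of mouse hippocampus, and all 10 names were found there. Counts come from small-RNA libraries of 12 male C57BL/6 mice aged 3 months. Of these, 6 were wild type (WT) and 6 were homozygous for a Gld2 knockout (GLD2-/-, here GLD2KO), and the mice were littermates from matings of Gld2 heterozygotes. Gld2, a cytoplasmic nucleotidyltransferase, lengthens RNAs, some miRNAs included, by untemplated adenosines. The members were selected on their names, in a proposal made with the measured GLD2KO against WT differences of these libraries in view. Their genotype differences are therefore given as a description, without a p-value for any member, and tests are kept for measures the choice did not use.

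The miR-17-92 cluster is transcribed as 1 long primary RNA, from which Drosha cuts several hairpins that Dicer then trims to mature miRNAs. It is a target of Myc, promotes proliferation and survival, and is known in the brain for its role in neural progenitors. A miRNA recognises its targets mainly through its seed, bases 2 to 8 from the 5′ end, and the members fall into 4 seed families. The miR-17 family is known for repressing the cell cycle inhibitor Cdkn1a.

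The members' mature sequences, from RefSeq's table for GRCm38.p6, are shown because families, near-identical pairs and the comparisons that follow rest on them. Each runs 5′ to 3′ with the seed in capitals, and all 10 members matched an entry.
miR-17-5p: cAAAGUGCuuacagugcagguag
miR-20a-5p: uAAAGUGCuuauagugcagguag
miR-20b-5p: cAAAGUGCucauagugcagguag
miR-106b-5p: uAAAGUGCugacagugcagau
miR-93-5p: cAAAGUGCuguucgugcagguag
miR-18a-5p: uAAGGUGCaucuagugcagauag
miR-19a-3p: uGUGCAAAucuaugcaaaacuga
miR-19b-3p: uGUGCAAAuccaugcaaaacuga
miR-92a-3p: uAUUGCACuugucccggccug
miR-25-3p: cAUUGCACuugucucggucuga

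The first 5 lines share the seed of the miR-17 family. Within families the members are close: counted from the 5′ end, miR-19a-3p and miR-19b-3p differ only by U11C, and miR-17-5p and miR-20a-5p by C1U and C12U. Between miR-20a-5p and miR-20b-5p the differences are U1C and U10C. How reads that fit several such miRNAs were counted is not given in the sources used here, so levels of these near-identical members are uncertain as single values.

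On GRCm38 the miR-17-92 hairpins lie within the long noncoding RNA Mir17hg on the plus strand of chromosome 14. In order they are Mir17 (chr14:115043671-115043754), Mir18 (chr14:115043851-115043946), Mir19a (chr14:115044000-115044081), Mir20a (chr14:115044157-115044263), Mir19b-1 (chr14:115044305-115044391) and Mir92-1 (chr14:115044427-115044506), each within an exon of Mir17hg. The miR-106b-25 hairpins lie on the minus strand of chromosome 5 inside Mcm7, which encodes a subunit of the replication helicase. Mir106b (chr5:138165737-138165818) is intronic in both Mcm7 transcripts that span it. Mir93 (chr5:138165523-138165610) and Mir25 (chr5:138165321-138165404) are intronic in 2 of 3 spanning transcripts and exonic in 1. From the miR-106a-363 cluster on the minus strand of the X chromosome, Mir20b (chrX:52742113-52742192) gives miR-20b-5p. Mir19b-2 and Mir92-2 of that cluster give the same mature miR-19b-3p and miR-92a-3p as the chromosome 14 hairpins, so these 2 members sum over both loci. The 5p arms differ between the loci. Those of chromosome 14, miR-19b-1-5p and miR-92a-1-5p, had 36 and 94 counts over the 12 libraries. Their X counterparts, miR-19b-2-5p and miR-92a-2-5p, both had 0. How the 2 members divide between the loci was not tested.

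Libraries held 2197915 to 3761106 counts. Levels are given as CPM, counts divided by library size after scaling with edgeR's TMM factors and brought to a common total, so a shift common to the whole table leaves no trace in them. Neuronal miRNAs were abundant, with 5 listed markers (miR-124-3p, miR-9-5p, miR-128-3p, miR-138-5p and miR-132-3p) summing to 108763 to 361209 CPM in WT and 148478 to 273716 CPM in GLD2KO. The pluripotent-cell miR-302 and miR-367 markers summed to at most 0.398 CPM in any library.

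The members were rare in hippocampus. Together they took between 0.0291% and 0.127% of a library's counts, and 101 single miRNAs of the table each had more counts than the 10 members combined. In WT their summed level had a mean of 548 ± 169 CPM and a range of 314 to 804 CPM, and in GLD2KO 919 ± 331 CPM and 570 to 1398 CPM (SD, n = 6 each). The groups overlapped, with 3 GLD2KO libraries above every WT library. As shares of unscaled library counts the means were 0.0531% in WT and 0.0925% in GLD2KO. In whole hippocampus, fewer cells that express a miRNA and less of it per cell cannot be told apart.

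**Figure D1:**
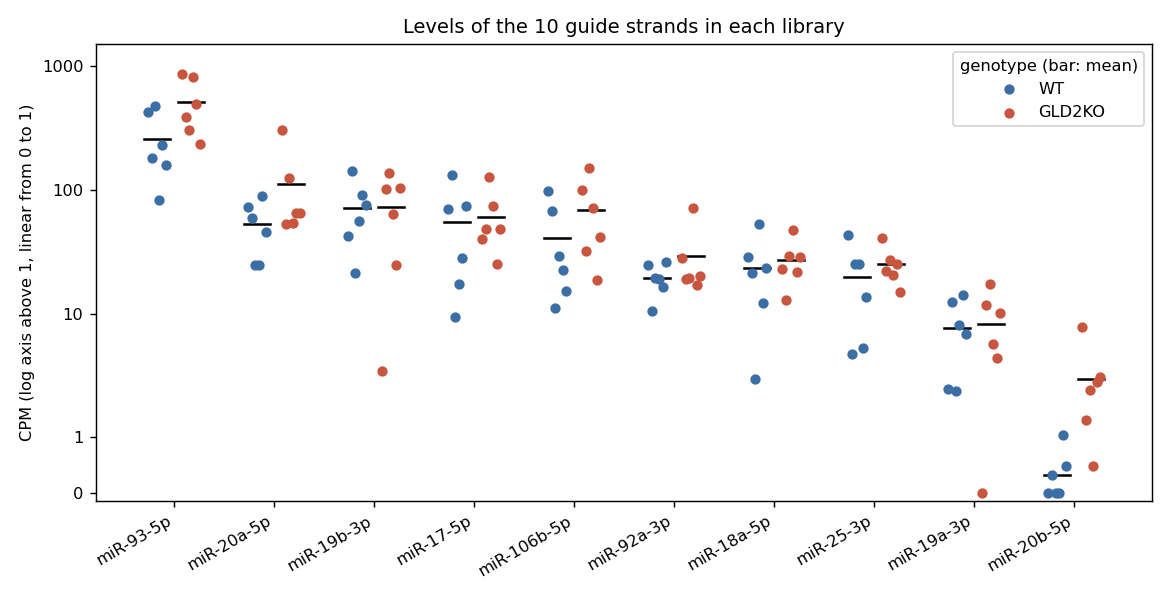
CPM of each member in each library (y axis, logarithmic above 1 and linear from 0 to 1), WT in blue and GLD2KO in red, 6 libraries each, with black bars for means; members are ordered by mean log2 CPM over all libraries. miR-93-5p lies above the others, and WT and GLD2KO points overlap for every member.

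The miR-17 seed family carried most of these counts, with a share of 71.4 ± 13.7% among WT libraries and 80.6 ± 8.73% among GLD2KO libraries (SD, n = 6 each). Its leading member in this tissue was not an miR-17-92 product but miR-93-5p, from the Mcm7 locus. It is listed as mmu-miR-93-5p and ranked 134 by mean CPM among the 1908 miRNAs. Its WT levels had a minimum of 82.3, a median of 206 and a maximum of 478 CPM, and its GLD2KO levels 235, 439 and 852 CPM. GLD2KO1 and GLD2KO4 were the highest of the 12 libraries and WT4 the lowest, while 3 GLD2KO libraries lay within the WT range. The log2 fold change, GLD2KO minus WT, was 0.99 (SE 0.47), and it ran from 0.75 to 1.31 with each library left out in turn.

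mmu-miR-20a-5p, the most abundant member that comes from chromosome 14 alone, had WT levels of 24.6, 52.3 and 88.9 CPM (lowest, median, highest) and GLD2KO levels of 53.1, 65.1 and 305 CPM. A single library, GLD2KO1, set the upper end: the next highest GLD2KO value was 125 CPM in GLD2KO3, and the other 4 lay within the WT range. The log2 fold change was 1.08 (SE 0.51), and 0.51 without GLD2KO1. It was above 0 in all 19 alternatives run, and lowest, at 0.39, with both WT3 and GLD2KO1 left out.

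mmu-miR-17-5p, the member that names the cluster, showed WT levels of 9.42, 48.7 and 132 CPM and GLD2KO levels of 25.1, 48.2 and 128 CPM. Its medians were nearly equal, and no GLD2KO library exceeded the highest WT library. The log2 fold change was 0.14 (SE 0.56), and its sign turned in 3 of 19 alternatives. It was -0.24 without GLD2KO3 and 0.67 without WT2.

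mmu-miR-106b-5p, from the same Mcm7 locus as miR-93-5p, had levels of 11.2, 25.7 and 97.6 CPM in WT and 18.7, 56.8 and 151 CPM in GLD2KO. Its log2 fold change was 0.77 (SE 0.58), between 0.38 without GLD2KO3 and 1.25 without WT1. Here WT1 was the highest WT library and GLD2KO3 the highest of all.

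mmu-miR-20b-5p, the X-chromosome member of the family, was at the edge of detection and did not pass the low-count filter. It had 7 counts over the 6 WT libraries, of which 3 had 0, and 44 counts over the GLD2KO libraries, of which none had 0. A count of 0 in WT3, the shallowest of these 3 on the scaled library size, allows up to 1.77 CPM (3 counts; counting error only). Levels ranged from 0 to 1.05 CPM in WT and from 0.475 to 7.82 CPM in GLD2KO, with GLD2KO1 highest and 5 GLD2KO libraries above the WT maximum. A fit without the filter called 7 of 1325 miRNAs (0.528%), this one among them. Nothing is read from that, as it is the contrast that stood behind the choice of members and rests on 7 against 44 counts. In the same library miR-20a-5p was highest too, with 623 counts beside 16 for miR-20b-5p, and over the 9 libraries with counts of both, miR-20a-5p was 21.4 to 187 times as abundant. Whether reads of one entered the count of the other was not tested.

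mmu-miR-18a-5p, the only member of the miR-18 seed, had WT levels of 2.94, 22.2 and 52.7 CPM and GLD2KO levels of 12.8, 25.9 and 47.4 CPM. All 6 GLD2KO values fell inside the WT range. Its log2 fold change was 0.20 (SE 0.51), and single libraries moved it between 0.01 without WT3 and 0.64 without WT4, with 0.02 without GLD2KO4 and 0.08 without WT5.

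The miR-19 family, which is known as the part of the cluster with the strongest effect on lymphoma growth in mice, took 15.6 ± 8.63% of the members' counts in WT and 10.4 ± 8.02% in GLD2KO. mmu-miR-19b-3p had levels of 21.2, 65.1 and 142 CPM in WT and 3.42, 82.6 and 136 CPM in GLD2KO. It was highest in WT2 and GLD2KO3 and lowest in GLD2KO1, where it had 7 counts. mmu-miR-19a-3p had 0 counts in GLD2KO1, which allows up to 1.47 CPM (3 counts), and reached at most 17.3 CPM elsewhere. The log2 fold changes were 0.02 (SE 0.61) for miR-19b-3p and 0.09 (SE 0.63) for miR-19a-3p. Their signs turned in 10 and 5 of 19 alternatives, so neither has a settled direction. Leaving out 1 library gave -0.28 (GLD2KO3) to 0.37 (WT2) for miR-19b-3p and -0.29 (GLD2KO3) to 0.38 (GLD2KO1) for miR-19a-3p.

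The miR-92 seed family was represented by mmu-miR-92a-3p, a miRNA known for restraining vessel growth in endothelium, and by mmu-miR-25-3p. miR-92a-3p lay at 10.5, 19.2 and 26.2 CPM in WT and 17.1, 19.6 and 70.7 CPM in GLD2KO. Medians nearly coincided, and the fold change rested on GLD2KO4: it was 0.58 on the log2 scale (SE 0.43), and 0.11 without that library. miR-25-3p had 4.75, 19.5 and 43.3 CPM in WT and 14.8, 23.6 and 40.6 CPM in GLD2KO. Every GLD2KO value was within the WT range (log2 fold change 0.36, SE 0.50). That value was 0.77 without WT1, 0.16 without WT2, and 0.18 without WT5 or without GLD2KO1.

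**Figure D2:**
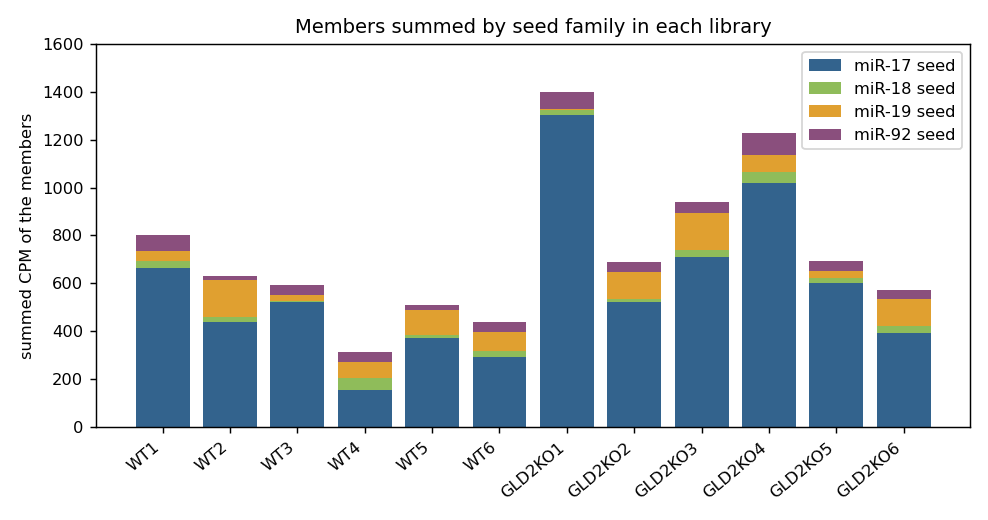
Summed CPM of the members in each library (bar height, from 0), divided by seed family. GLD2KO1 and GLD2KO4 have the highest sums, 1398 and 1226 CPM, WT4 the lowest at 314 CPM, and the miR-19 part of GLD2KO1 is 3.42 CPM.

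Over the whole table, 521 miRNAs passed the low-count filter. In edgeR's quasi-likelihood fit 0 of them (0%) had a p under 0.05 after Benjamini-Hochberg adjustment. The 9 members tested were among those not passing. In simulated data with 200 of 521 miRNAs changed, this fit recovered 25.4% of changes of log2 fold 1 and 89.6% of those of log2 fold 2. Differences of the members' size could thus be missed. Both percentages hold for that setting, and recovery with fewer than 200 miRNAs changed was not tested. At an unadjusted p under 0.05 there were 25 of 521 (4.8%) in edgeR, 45 in DESeq2 and 23 in limma-voom, and the latter tools also called 0 after adjustment (0% of 1317 and 0% of 521). The fitted log2 fold change was above 0 for 9 of the 9 tested members, with a median of 0.36, where it was above 0 for 58.7% of all tested miRNAs (306 of 521), with a median of 0.12. As this contrast stood behind the choice of members, the count and the median are descriptions only. The count was 6 of 9 without WT3 or without GLD2KO3, when miR-17-5p, miR-19a-3p and miR-19b-3p lay below 0. The median was 0.67 without WT1, 0.56 without WT4 and 0.22 without GLD2KO4.

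**Figure D3:**
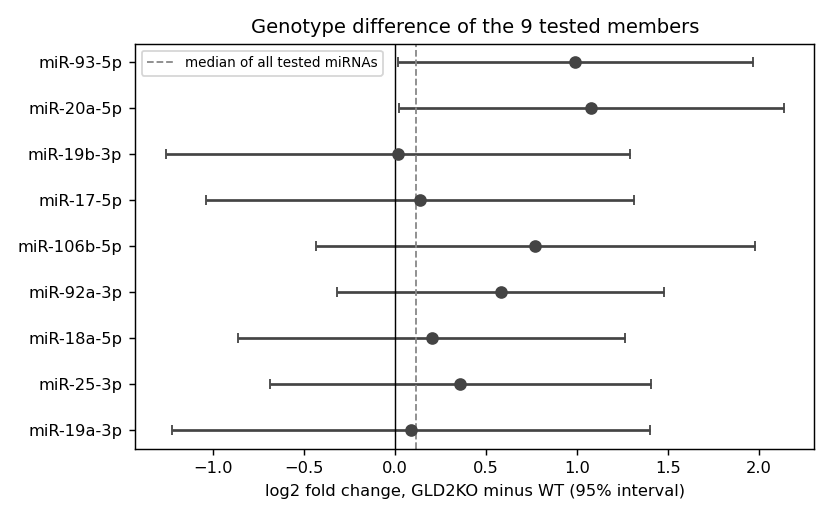
Log2 fold change, GLD2KO minus WT, of the 9 members that passed the low-count filter (points) with 95% intervals from edgeR; the dashed line is the median of all 521 tested miRNAs. Intervals are not adjusted and are descriptions only, as this contrast stood behind the choice of members. None of the 9 passed after adjustment over the 521.

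Libraries of a genotype differed widely for these miRNAs. The edgeR biological coefficient of variation of the tested members ran from 0.519 for miR-92a-3p to 0.722 for miR-19b-3p, beside a median of 0.548 over all tested miRNAs. Counting alone would give a coefficient of variation of about 3.62% for miR-93-5p, whereas its observed values were 60.7% in WT and 51.0% in GLD2KO. For miR-19a-3p, with 304 counts in all, counting alone gives 38.7% with its count of 0 taken as 1, and the observed values were 63.9% and 74.7%. In WT3, which had 762 miRNAs with counts, the fewest of any library, 6 of the 10 members were at the lowest log2 CPM of the WT group. Of these 6, miR-20b-5p was tied, with 0 counts in WT1 and WT4 as well. In contrast, miR-93-5p was at its WT maximum in WT3.

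The order of the members' levels was compared within libraries, a measure the choice of members did not use. By mean log2 CPM the order was miR-93-5p, miR-20a-5p, miR-19b-3p, miR-17-5p, miR-106b-5p, miR-92a-3p, miR-18a-5p, miR-25-3p, miR-19a-3p and miR-20b-5p. Of the 45 pairs of members, 36 differed (two-sided exact sign-flip permutation over 12 libraries, Benjamini-Hochberg adjusted over the 45 pairs). miR-93-5p exceeded miR-20a-5p in 12 of 12 libraries, by 2.29 ± 0.999 on the log2 scale (SD; exact permutation, adjusted p = 0.00116). Below it, neighbours in the run from miR-20a-5p to miR-106b-5p did not differ beyond their spread (exact permutation, adjusted p of 0.659 to 0.855).

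A step separated miR-106b-5p from miR-92a-3p, at 0.89 ± 1.21 and in 10 of 12 libraries (exact permutation, adjusted p = 0.0407). miR-92a-3p, miR-18a-5p and miR-25-3p were again not separable as neighbours (exact permutation, adjusted p of 0.922 and 0.711). Lower steps led to miR-19a-3p (1.57 ± 2.04, 10 of 12 libraries, exact permutation, adjusted p = 0.0262) and to miR-20b-5p (1.95 ± 1.95, 11 of 12 libraries, exact permutation, adjusted p = 0.0147). Ligation and size selection act differently on different sequences, so these are orders of counts in libraries made 1 way.

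Products of 1 transcript could differ widely in count. On Mcm7, miR-93-5p had 2.02 to 42.7 times the counts of miR-106b-5p, with a median of 9.46, and 3.26 to 43.8 times those of miR-25-3p. Within Mir17hg, miR-17-5p had 0.132 to 2.24 times the counts of miR-20a-5p. miR-20a-5p and miR-19b-3p, the latter summed over chromosomes 14 and X, did not differ in level beyond their spread over the 12 libraries (exact permutation, adjusted p = 0.855). Their ratio was 89 in GLD2KO1 (623 against 7 counts) and between 0.417 and 2.63 in the other 11 libraries. The ratio of miR-19b-3p to miR-19a-3p was 5.64 to 17.2, with a median of 9, in the 11 libraries with counts of both.

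The 2 arms of a hairpin also differed in how far the guide prevailed. The Mir17 and Mir93 hairpins, both with a guide of the miR-17 seed on the 5p arm, are shown as the contrasting cases, 5′ to 3′ with the 5p and then the 3p mature arm in capitals.
Mir17: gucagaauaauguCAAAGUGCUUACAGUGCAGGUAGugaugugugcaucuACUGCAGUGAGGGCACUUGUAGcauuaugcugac
Mir93: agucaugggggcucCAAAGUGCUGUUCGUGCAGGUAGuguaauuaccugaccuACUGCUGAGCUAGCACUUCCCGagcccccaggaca

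From Mir17, the guide miR-17-5p had 2099 counts and the other arm, miR-17-3p, 1905. The guide led in 6 of 12 libraries and the other arm in the remaining 6, and its share of both arms ran from 22.9% in WT3 to 81.2% in WT2. Its mean share was 57.2 ± 22.4% over the 6 WT libraries and 43.7 ± 13.9% over the 6 GLD2KO libraries (SD). Mir106b was similarly divided, with a guide share of 18.7% to 83.9% and the guide ahead in 7 of 12 libraries.

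From Mir93 the guide took 71.4% to 98.6% of counts and led in 12 of 12 libraries. Guides also led in all 12 libraries for Mir18 (83.3% to 100%) and Mir20a (87.6% to 99.8%), and in 11 for Mir25, where WT2 had a guide share of 39.5%. Mean shares for Mir93 were 88.1 ± 9.73% in WT and 95.6 ± 2.66% in GLD2KO.

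**Figure D4:**
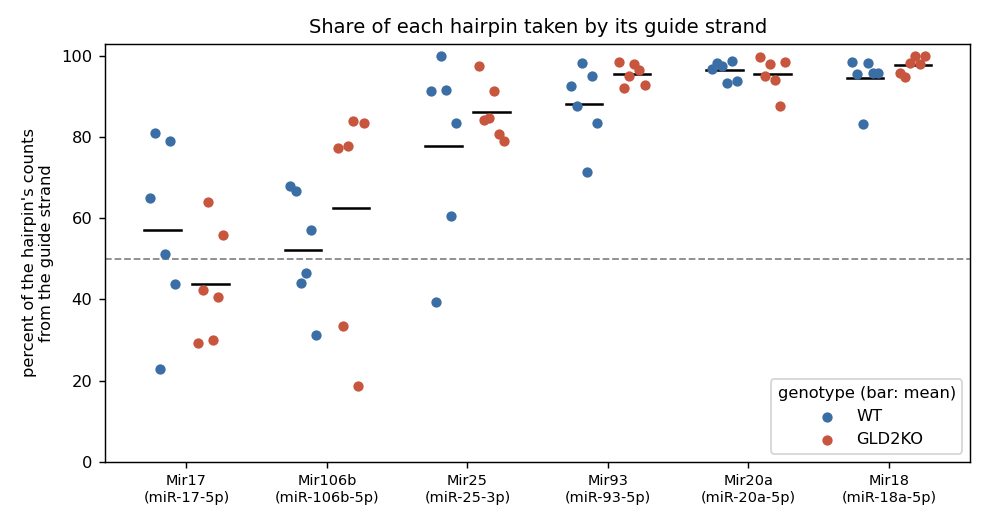
Share of a hairpin's counts that came from its guide strand (y axis, percent; dashed line at 50%) in each library, for 6 hairpins, WT in blue and GLD2KO in red, with black bars for means. Mir17 and Mir106b points lie on both sides of the line, while those of Mir93, Mir20a and Mir18 are all above 70%.

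Of 18 other products of the 3 clusters, 14 had counts and 4 passed the count filter. Levels of miR-17-3p were 7.38, 31.3 and 93.8 CPM in WT and 36.6, 68.4 and 172 CPM in GLD2KO. Its log2 fold change was 1.14 (SE 0.54). The others were miR-106b-3p at 0.43 (SE 0.51), miR-25-5p at 0.12 (SE 0.56) and miR-93-3p at -0.35 (SE 0.42), opposite in sign to its guide. None of the 4 passed the edgeR test after adjustment over all 521 miRNAs. From the X-linked cluster, miR-106a-5p, which differs from miR-17-5p only by U10A, had 16 counts over the 12 libraries, and miR-363-3p had 29.

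The table held 7 other miRNAs with a member's seed, of which 3 (miR-106a-5p, miR-18b-5p and miR-363-3p) are products of the X-linked cluster and 4 come from elsewhere. The filter was passed by 2, miR-92b-3p and miR-32-5p, both from elsewhere and with the miR-92 seed. miR-92b-3p averaged 587 ± 220 CPM across WT and 936 ± 577 CPM across GLD2KO libraries (SD, n = 6 each; log2 fold change 0.67, SE 0.41). miR-32-5p had 58.8 ± 21.1 and 58.1 ± 25.5 CPM, a log2 fold change of -0.02 (SE 0.39). Neither passed the edgeR test. The sequence of miR-92b-3p, with the seed in capitals, differs from miR-92a-3p by U10C and G21C over the 21 bases they share.
miR-92b-3p: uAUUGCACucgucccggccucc

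In consequence miR-92a-3p and miR-25-3p made up only 2.89% to 10% of all counts with their seed in a library, whereas members made up at least 99.8% of counts with the miR-17 seed and 100% of those with the miR-19 seed.

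Whether members varied together between mice was examined on log2 CPM after subtracting each genotype's mean. Of the 45 pairs, 1 passed, the near-identical miR-19a-3p and miR-19b-3p. For this pair Pearson's r was 0.959 (permutation p = 5e-05, adjusted p = 0.00225) and Spearman's rho 0.902 (permutation p = 0.0003, adjusted p = 0.0135) over 12 libraries. Without the 2 libraries farthest from the median of miR-19a-3p, r was 0.858. Without both WT3 and GLD2KO1 it was 0.848 and no longer passed (permutation, adjusted p = 0.081). Over leaving out each library in turn r stayed between 0.888 and 0.974.

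Pairs of members made from 1 transcript alone had low to moderate r values. These leave out miR-19b-3p and miR-92a-3p, which have hairpins in Mir17hg but also on the X chromosome. With miR-19b-3p, r was 0.959 for miR-19a-3p, 0.520 for miR-17-5p, 0.234 for miR-18a-5p, -0.206 for miR-92a-3p and -0.350 for miR-20a-5p. Of these only the miR-19 pair passed. Among the 6 pairs of the 4 members made from chromosome 14 alone, r had a median of 0.254, from -0.365 to 0.469, and among the 3 Mcm7 pairs a median of 0.135, from 0.0861 to 0.333; 0 of these 9 pairs passed. Relations of members from different loci reached unadjusted p under 0.05, among them miR-17-5p with miR-106b-5p (r = 0.681, permutation p = 0.0264, adjusted p = 0.198; rho = 0.601, permutation p = 0.0616). The relation of miR-19a-3p with miR-93-5p was negative (r = -0.667, permutation p = 0.0127, adjusted p = 0.115; rho = -0.685, permutation p = 0.0211). Without the 2 farthest libraries these were 0.540 and -0.535, and neither passed the adjustment over the 45 pairs. Of the 45, 8 had an unadjusted permutation p under 0.05, the miR-19 pair included. For the near-identical miR-20a-5p and miR-20b-5p r was 0.755 (permutation p = 0.00956, adjusted p = 0.1075), and 0.397 without the 2 farthest libraries. For miR-25-3p r was -0.5755 with miR-19b-3p and -0.627 with miR-19a-3p (permutation, adjusted p = 0.0933 for each).

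**Figure D5:**
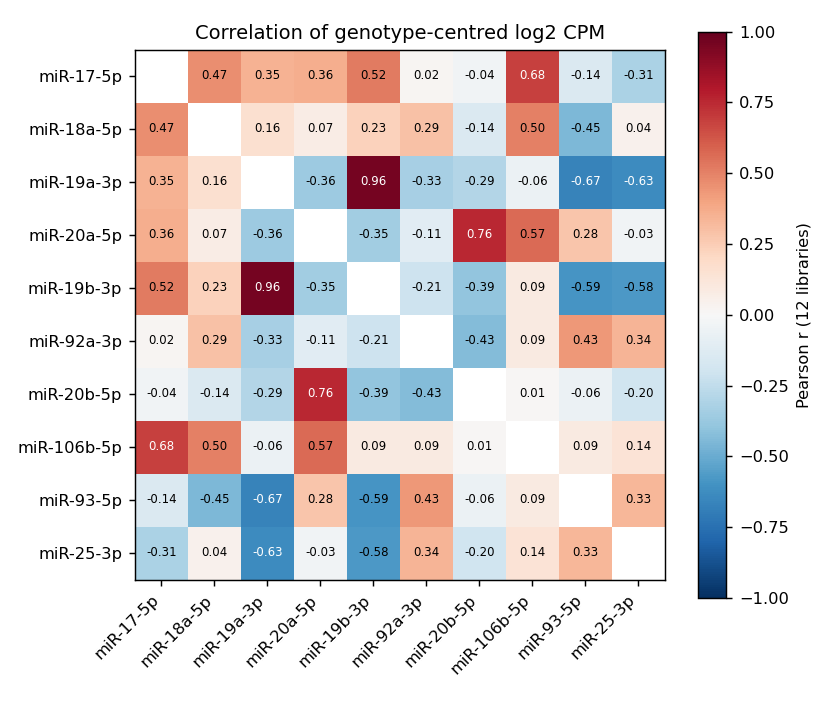
Pearson's r between members over 12 libraries, on log2 CPM with each genotype's mean subtracted; members are grouped as chromosome 14 alone (first 4), both chromosome 14 and X (next 2), X alone, and Mcm7 (last 3). The square of miR-19a-3p with miR-19b-3p (0.96) is the only one that passed the test.

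Among the 512 other tested miRNAs, the one whose pattern was most like the mean log2 CPM of the members, with genotype means subtracted, was miR-148a-3p, at a mean of 9.09 CPM. Pearson's r was 0.906 (permutation p = 4e-05, adjusted p over the 512 = 0.0205) and Spearman's rho 0.972 (permutation p = 1e-05, the smallest the permutations can give, adjusted p = 0.00512). Without the 2 farthest libraries r was 0.926. It was the only one of the 512 to pass on Pearson's r. Next came miR-151-5p (r = 0.855), miR-28a-5p (0.809), miR-148b-3p (0.769), which has the same name stem as miR-148a-3p, and miR-409-3p (0.764), with permutation adjusted p of 0.268 for the first 3 and 0.493 for the last. Their rho values were 0.734, 0.853, 0.783 and 0.650 (permutation, adjusted p of 0.253 to 0.552), and r without the 2 farthest libraries was 0.719, 0.695, 0.796 and 0.495.

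Blood and vessel cells, which a hippocampus holds alongside neurons and glia, are known to express members of these clusters. Of 5 listed erythroid markers 3 were in the table under those names, all 3 with a fitted fold change above 0, as had 58.7% of all tested miRNAs. Their sum ranged from 678 to 22971 CPM in WT and from 1182 to 24306 CPM in GLD2KO. Also listed were miR-486a-5p and miR-486b-5p, where the table holds miR-486-5p, at a mean of 256 CPM, which this sum leaves out. The 2 endothelial markers, the arms of miR-126a, were both above 0 and summed to 2503 to 8508 CPM in WT and 2647 to 9529 CPM in GLD2KO. Of the 2 smooth muscle and pericyte markers 1 was above 0, while miR-145a-5p had a log2 fold change of -1.27 (SE 0.67), and their sums were 1505 to 11866 CPM in WT and 681.5 to 4179 CPM in GLD2KO. Of 5 microglia and leukocyte markers 3 were in the table under those names, 0 of them above 0, with sums of 683 to 1507 and 891 to 1093 CPM. The list named miR-142a-3p and miR-142a-5p, where the table holds miR-142-3p and miR-142-5p, so these sums leave them out. Their log2 fold changes were -0.13 (SE 0.51) and 0.58 (SE 0.42), the latter above 0. None of these markers was at 0 over the 12 libraries, and their part in the members' levels was not tested.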

How the data were processed

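Small RNAs of hippocampus from 6 WT and 6 GLD2KO mice were extracted with TRIzol, size-selected on a gel and sequenced on an Illumina HiSeq instrument, per the labels' protocols. Trimmomatic 0.32, cutadapt 1.3 and GRCm38 are named per the submitters' processing notes. For the aligner, the counter and the treatment of reads with several matches, the sources used here give nothing. The authors deposited raw counts, whole numbers for each mature miRNA in each library, and no normalized values. The 1 row naming no miRNA held 0 counts and was left out. Groups come from the titles and columns were matched by name.

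Counts were fitted in R 4.3.3 with edgeR 4.0.16 (TMM, filterByExpr, glmQLFit, glmQLFTest), leaving 521 miRNAs with 99.96% of counts. P values were adjusted by Benjamini-Hochberg, threshold 0.05. Log2 CPM used a prior count of 2. Level pairs used all 4096 sign flips of 12 libraries, and correlations 100000 permutations of libraries within genotype. The fits and tests were first tested on simulated data. Alternatives were DESeq2 1.42.0, limma-voom 3.58.1, other scalings, no filter, the replicate number as a block and leaving out each library; leaving out WT3 and GLD2KO1 together was added after seeing the data. Members, lists and naming rules were chosen with earlier results of these data known. All 10 members are named, as are other cluster products and seed relatives that passed the filter, and the 5 miRNAs most like the members' mean. Sequences and hairpin positions are from RefSeq (GRCm38.p6) and host genes from GENCODE M21. No molecular identifiers are named, so limits from counts cover counting error only.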

Additional observations from a re-analysis of the deposited data

Results flagged for a closer look

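Of 52 groups of 6 libraries checked for members, their sums, their arms and relatives, 8 held a library set apart from its group by Dixon's test. At a rate of 1 in 20, chance alone would mark 2.6. That rate assumes normally distributed values and separate groups, whereas these were CPM and percentages of overlapping sets. The 8 and the 2.6 therefore cannot be compared as a test. In GLD2KO1, miR-20a-5p reached 305 CPM, where the rest of its group had 53.1 to 125 CPM, and miR-20b-5p at 7.82 CPM against 0.475 to 3.05 CPM. In GLD2KO4, miR-92a-3p reached 70.7 CPM against 17.1 to 27.9 CPM, and its seed relative miR-92b-3p at 2039 CPM against 365 to 911 CPM. The same relative was at 1015 CPM in WT4, the rest of the WT group lying between 419 and 608 CPM. The other arm of Mir17, miR-17-3p, was at 93.8 CPM in WT6 against 7.38 to 37.2 CPM, and that of Mir93, miR-93-3p, at 32.6 CPM in GLD2KO2 against 12.2 to 18.3 CPM. The guide share of Mir18 was 83.3% in WT3 against 95.7% to 98.6%, on 5 counts of miR-18a-5p and 1 of miR-18a-3p.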

How the results depend on the processing

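Dropping the filter on counts gave 7 calls among 1325 miRNAs (0.528%), including miR-20b-5p at a log2 fold change of 2.91. Over 16 alternatives that value ran from 2.36 to 3.66, and its call was lost in 7 of them: with DESeq2, unscaled library totals or the replicate block, and without WT1, WT2, WT4 or GLD2KO1. The cause was not tested. DESeq2 and every alternative fit with the filter called 0 miRNAs. Same-numbered WT and GLD2KO libraries correlated at -0.232 to 0.241 in their deviations. Whether the numbers pair mice is not stated, and low correlations cannot settle it. With the replicate number as a block 7 of 9 members were above 0 (median 0.42), and 0 of 45 pairs passed as correlated over 6 differences. The 720 orders of 6 values are too few for a single pair to pass that adjustment, and r of the miR-19 pair was 0.968 there. With limma-voom 7 of 9 members were above 0. Correlated pairs numbered 0 without WT3 and GLD2KO1 together, and 1 to 3 without each library, with 2 without WT1 and 3 without GLD2KO3. Pairs differing in level numbered 31 to 36. The median log2 fold change of the members was 0.22 to 0.67 over all alternatives. At these depths members under about 1 CPM lie near the limit of a count of 0.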

Other observations

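Summed levels of 8 cell-type marker lists were compared with the members' mean log2 CPM over the 12 libraries, with genotype means subtracted; this was added after the values were seen, and 0 of 8 passed. The highest relation was with erythroid markers (r = 0.606, permutation p = 0.0539, adjusted p = 0.216; rho = 0.503, permutation p = 0.116, adjusted p = 0.464), and it rested on the 2 farthest libraries, as r was 0.161 without them. Most of the erythroid sum was miR-451a, at a mean of 8379 CPM and with an r of 0.6065 by itself. For miR-144-3p and miR-144-5p r was 0.311 and 0.429, and for miR-486-5p, which the sum left out, 0.235. With microglia and leukocyte markers the relation was negative (r = -0.679, permutation p = 0.0207, adjusted p = 0.166, and rho = -0.538, permutation p = 0.0916, adjusted p = 0.464). Without the 2 farthest libraries r was -0.573. This sum left out miR-142-3p and miR-142-5p, whose own r with the members' mean was 0.506 and -0.189. Most of it was miR-150-5p, at a mean of 929 CPM and with an r of -0.644 by itself.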
